A study of Mus musculus with 57 samples.

Results

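The genes described here are 10 transcripts used to follow hepatic stellate cells from rest to activation. They were taken by symbol from a table of 54307 mouse genes, and all 10 were found once each. Acta2, Tagln, Timp1 and Lox mark activation, Lrat and Reln mark quiescence, and Des, Pdgfrb, Dcn and Cygb are expressed by stellate cells in more than 1 state. Gene lists and members were chosen by name, without a threshold on their values but with earlier results of these data known. Their shares set against all genes are therefore descriptions.

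Stellate cells lie in the space between sinusoidal endothelium and hepatocytes and store vitamin A as retinyl esters. After injury they can turn into contractile myofibroblasts, which express smooth muscle actin, secrete collagen and other matrix proteins, and make inhibitors of the enzymes that degrade matrix. Lrat, lecithin retinol acyltransferase, makes the retinyl esters that mark the resting cell, and Reln, reelin, is a secreted glycoprotein that the resting cell also makes.

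Bulk RNA-seq was measured in the livers of 57 wild-type (WT) male C57BL/6JJcl mice, 40 of them given 1 of 7 liver toxicants and 17 given a vehicle. Mice were 6 weeks old, were acclimatised for 1 week and fasted for 12 h before dosing, and the perfused liver was taken 24 h after it. By gavage, alpha-naphthyl isothiocyanate (ANIT) was given to 4 mice, thioacetamide (TAA) to 5, acetaminophen (APAP) to 6, 4,4'-methylene dianiline (MDA) to 7, and the vehicle alone, 0.5% methylcellulose, to 13. By the intraperitoneal route, 7 mice received carbon tetrachloride (CCl4), 4 galactosamine (GAL) and 2 saline, and by the intravenous route 7 received concanavalin A (ConA) and 2 saline; the saline is given as 0.9% in the labels. Corn oil is also named as a vehicle, but no control received it, so for a compound given in corn oil the compound and the oil cannot be told apart. The doses of the compounds are not given in the sources used here. Compounds that share a route also share their control mice, so results of such compounds are not independent. The samples of a group are numbered livers, and p-values measure the spread between them.

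Below, a level is in CPM, estimated counts scaled to a common library size with TMM, and a fold change is a log2 difference between a compound and the vehicle of its route with its standard error (SE). A gene is said to have risen or fallen only where edgeR's quasi-likelihood test gave a Benjamini-Hochberg adjusted p under 0.05 over all genes tested. RNA came from bulk tissue of the left lateral lobe, so fewer stellate cells and less RNA per stellate cell cannot be told apart.

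Promoters are shown first for Acta2, whose level varied most widely between compounds in both directions, and for Lrat, the gene that fell most often. RefSeq's promoter table (GRCm38.p6) held 5 of the 10 members. Each sequence is the 250 bases upstream of the annotated start, read 5′ to 3′ on the gene's strand. Capitals mark matches, on either strand, to the CArG box, the element read by serum response factor, allowing 1 mismatch.
Acta2 promoter, chr19:34255374-34255623, minus strand: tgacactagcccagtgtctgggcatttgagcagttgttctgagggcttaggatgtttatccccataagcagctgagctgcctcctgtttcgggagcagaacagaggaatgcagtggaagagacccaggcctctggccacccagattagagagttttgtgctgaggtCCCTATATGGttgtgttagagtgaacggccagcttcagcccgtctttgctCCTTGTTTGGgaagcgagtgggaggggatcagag
Lrat promoter, chr3:82903975-82904224, minus strand: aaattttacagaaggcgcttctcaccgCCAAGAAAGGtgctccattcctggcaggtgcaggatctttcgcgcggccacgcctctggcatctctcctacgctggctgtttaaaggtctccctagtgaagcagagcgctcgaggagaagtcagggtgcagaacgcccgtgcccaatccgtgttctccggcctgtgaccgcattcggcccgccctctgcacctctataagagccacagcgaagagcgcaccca
The Acta2 window held 2 such matches, at -84 to -75 and at -34 to -25 from the start, and the Lrat window held 1, at -223 to -214. Neither window held the box without a mismatch. Of 32851 promoter windows of the same length, 18.6% held a match with 1 mismatch and 1.47% a match without one. The windows of Des, Reln and Timp1 held neither form, and none of the 5 windows held the AP-1 element TGANTCA on either strand, which 6.75% of all windows held. These are matches of letters in a window, and binding was not measured.

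The median library held 21532116 estimated counts (lowest 13826343, highest 35075809), and no pair of columns was identical. Of the counts in the ConA libraries, 14.6 to 39.3% were mitochondrial, against 6.79 and 25.4% in the intravenous saline mice, and 15362 to 17432 genes had at least 1 count, against 17343 and 18566. The part of these differences in the ConA values was not tested. APAP mouse 1 stood apart from the other APAP mice in several members, as given below. The APAP comparison with gavage vehicle was also run without it, and calls or counts that changed are given. The 4 gavage vehicle mice numbered 15 to 18 had the highest Acta2 levels of that group, between 4.60 and 6.93 CPM against 0.711 to 4.21 CPM in the other 9. Against those other 9 alone, Timp1 was also called higher with ANIT and MDA and Des with TAA, Acta2 and Des were no longer called with MDA, and no call of a member changed with APAP. With edgeR 0 of 9 tested members were called between intraperitoneal saline and gavage vehicle (0.0131% of all genes called) and 0 of 9 between intravenous saline and gavage vehicle (0.0263%). The count was also 0 with DESeq2 and at an unadjusted p under 0.05.

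The compounds fell into different patterns over the 10 genes. Acta2, Tagln and Timp1 all rose with APAP, TAA and CCl4. With ConA, Timp1 rose while Acta2 and Tagln fell, and Lox, which passed the filter on low values through the ConA mice, was higher. Acta2, Tagln, Lrat and Reln all fell with ANIT and with MDA, and with GAL the 1 member called was Timp1. In the following counts, the share of all genes called in the same direction stands in brackets. With ANIT, 0 of 9 tested members rose (14% of all genes) and 4 fell (14.2%). With MDA, 0 of 9 rose (17.4%) and 6 fell (16.4%). With APAP, 7 of 9 rose (17.3%) and 0 fell (14.6%), and without mouse 1, 6 rose (14.5%) and 0 fell (14.5%). With TAA, 5 of 10 rose (26.4%) and 1 fell (24%). With CCl4, 3 of 10 rose (18%) and 1 fell (15.6%). With GAL, 1 of 9 rose (12.8%) and 0 fell (15.7%). With ConA, 2 of 10 rose (16.8%) and 5 fell (17.3%). The share of members that fell with ANIT, MDA and ConA, and that rose with APAP, TAA and CCl4, was above that of all genes. The share that rose with GAL and ConA was near it. Lox, the lowest member, was tested against the route vehicle only with TAA, CCl4 and ConA, so it could add to these counts only there. Without it 4 of 9 rose with TAA, 3 of 9 with CCl4 and 1 of 9 with ConA. The median log2 fold change of the tested members was 1.06 with APAP and 0.89 with TAA, against 0.07 and 0.03 over all genes, and it was -0.99 with MDA and -1.20 with ConA, against 0.03 and 0.03.

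**Figure D1:**
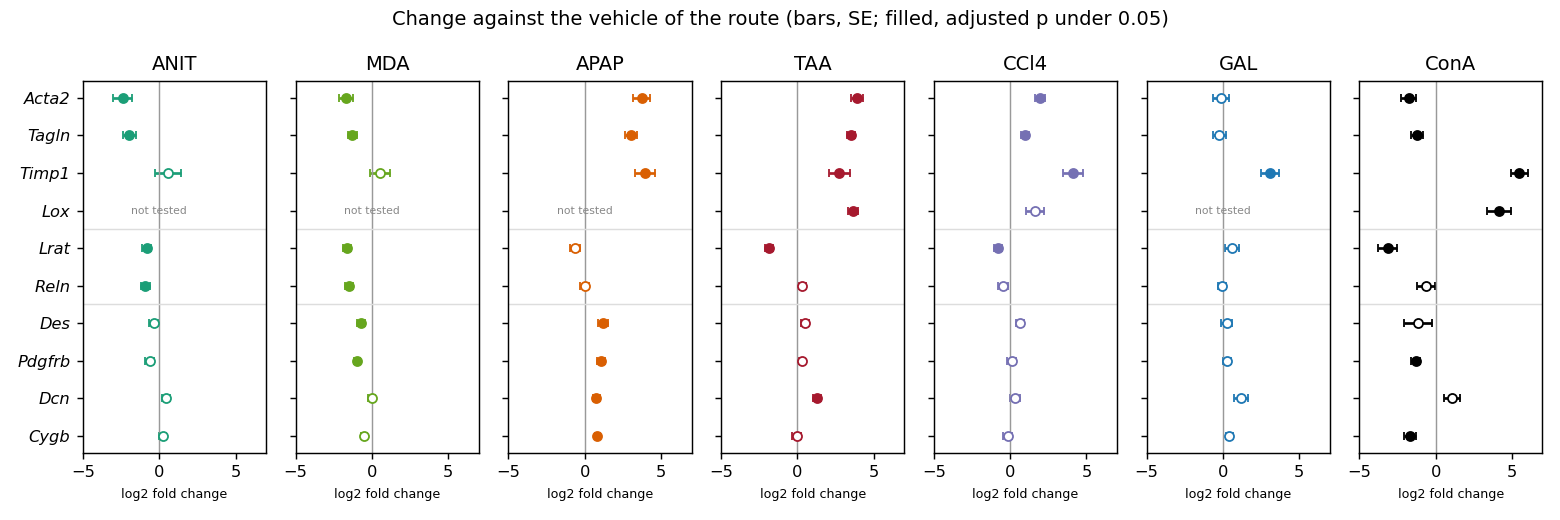
Log2 fold change of each member (rows) against the vehicle of its route for each of 7 compounds (panels); bars are SE, filled points have an adjusted p under 0.05, and Lox was not tested with 4 compounds. Acta2 and Tagln lie right of 0 with APAP, TAA and CCl4 and left of 0 with ANIT, MDA and ConA, while Timp1 is filled with 5 compounds and always right of 0.

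The contractile genes Acta2, which encodes smooth muscle alpha-actin, and Tagln, which encodes the actin-binding protein transgelin, moved in step. Each rose with 3 compounds, fell with 3 and passed no threshold with GAL. In the 13 gavage vehicle mice Acta2 ranged from 0.711 to 6.93 CPM with a median of 3.65 CPM. In the 5 TAA mice it stood at 74.3, 43.6, 42.3, 29.1 and 49.8 CPM. All TAA mice were above every vehicle mouse, and the rise was 3.90 ± 0.41 (adjusted p = 2.13e-07). In the 6 APAP mice Acta2 ranged from 0.431 to 99.9 CPM with a median of 35.2 CPM. APAP mouse 1 was the lowest at 0.431 CPM, below every vehicle mouse, and the other 5 were above every vehicle mouse. The rise with APAP was 3.73 ± 0.57 with mouse 1 (adjusted p = 6.53e-05) and 3.98 without it (adjusted p = 2.49e-06).

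Acta2 rose less with CCl4. The 7 CCl4 mice ranged from 13.0 to 25.4 CPM with a median of 17.2 CPM, and the 2 intraperitoneal saline mice stood at 5.55 and 3.48 CPM. These groups did not overlap, and the rise was 1.98 ± 0.32 (adjusted p = 0.0014). The 4 GAL mice, given by the same route, stood at 3.41, 6.63, 5.37 and 2.06 CPM and lay on both sides of the saline mice, with a difference of -0.12 ± 0.50 (adjusted p = 0.873).

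In the other direction, the 4 ANIT mice stood at 0.688, 0.450, 0.277 and 1.01 CPM of Acta2. The 7 MDA mice ranged from 0.295 to 1.71 CPM with a median of 0.847 CPM. Both groups overlapped the lower end of the gavage vehicle mice, and Acta2 fell by 2.38 ± 0.63 with ANIT (adjusted p = 0.0088) and by 1.72 ± 0.47 with MDA (adjusted p = 0.00695). Against the 9 vehicle mice numbered 1 to 12 alone, the MDA difference was -1.15 with an adjusted p of 0.0539. With the range of mouse numbers as a covariate the ANIT difference was -1.94 with an adjusted p of 0.06. The 7 ConA mice ranged from 0.829 to 3.78 CPM with a median of 1.40 CPM, all below the intravenous saline mice at 7.08 and 4.84 CPM. Acta2 fell by 1.75 ± 0.49 with ConA (adjusted p = 0.0191), and without saline mouse 7 the difference was -1.44 with an adjusted p of 0.147.

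Tagln followed the same order at a higher level. The 5 TAA mice ranged from 66.3 to 108 CPM against 2.56 to 13.2 CPM in the gavage vehicle mice, without overlap, a rise of 3.50 ± 0.27 (adjusted p = 4.57e-09). In APAP mouse 1 Tagln was 3.23 CPM, within the vehicle range, and in the other 5 APAP mice it ran from 38.3 to 114 CPM. The rise with APAP was 3.03 ± 0.42 (adjusted p = 2.14e-05), and 3.27 without mouse 1. With CCl4 the 7 mice lay between 20.3 and 35.6 CPM and the saline mice at 14.6 and 10.8 CPM, a rise of 0.96 ± 0.24 (adjusted p = 0.0132). Tagln fell by 1.97 ± 0.41 with ANIT (adjusted p = 0.00182), by 1.31 ± 0.29 with MDA (adjusted p = 0.00171) and by 1.23 ± 0.41 with ConA (adjusted p = 0.0402). The CCl4 call was lost without saline mouse 8 (0.78, adjusted p = 0.138), and the ConA call was lost without either saline mouse (-1.20 and -1.25, adjusted p = 0.152 and 0.13) and without any 1 of 5 ConA mice.

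**Figure D2:**
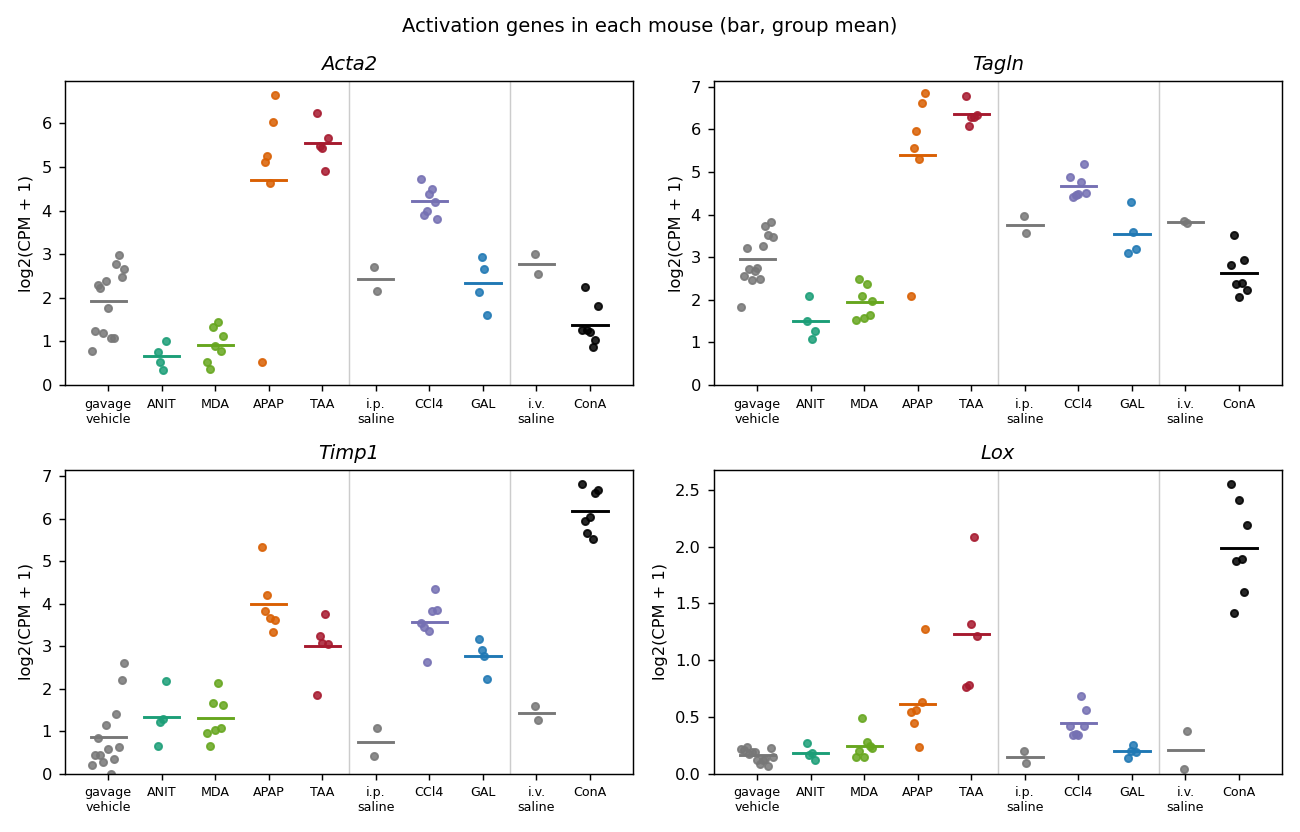
Levels of Acta2, Tagln, Timp1 and Lox on a log2(CPM + 1) scale in each of 57 mice (points), by group, with the group mean as a bar and grey lines between routes. For Acta2, 5 of 6 APAP mice, all 5 TAA mice and all 7 CCl4 mice lie above their vehicle mice, and APAP mouse 1 lies below; for Timp1 and Lox the 7 ConA mice are the highest groups.

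Markers of vascular smooth muscle, which also expresses Acta2 and Tagln, were followed beside these genes. Of these markers Myh11, Cnn1, Actg2 and Lmod1 also belong to the list of contractile genes below, so the 2 lists are not separate readouts. Of the 6 markers, Pln was at 0 in every mouse but 1 CCl4 mouse, and the median of Cnn1 was at most 0.134 CPM in every group. Actg2, enteric smooth muscle actin, rose with APAP (2.78 ± 0.54), TAA (2.60 ± 0.60) and CCl4 (2.60 ± 0.64), and its group medians there were 1.48, 1.31 and 0.407 CPM. It passed the filter on low values only with these compounds. Its rises, and the counts below that hold them, cannot be read without that choice. The summed level of the 6 markers ranged from 1.81 to 5.08 CPM in the gavage vehicle mice, from 3.03 to 12.4 CPM with APAP and from 5.88 to 12.4 CPM with TAA. It ranged from 3.83 to 7.07 CPM with CCl4 against 2.44 to 3.46 CPM in intraperitoneal saline. Of the markers tested, 1 of 2 rose with APAP (2 of 3 without mouse 1), 2 of 3 with TAA and 1 of 3 with CCl4, and none of the single marker tested with ANIT, MDA, GAL or ConA was called. The part of these cells in the Acta2 and Tagln values was not tested.

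Timp1 encodes tissue inhibitor of metalloproteinases 1, a secreted inhibitor of matrix-degrading enzymes. It rose with 5 of 7 compounds and fell with none. In the 13 gavage vehicle mice it ranged from 0 to 5.05 CPM with a median of 0.508 CPM, and mice 17 and 18 were the highest at 3.62 and 5.05 CPM. In the ConA mice it ranged from 45.3 to 112 CPM with a median of 65.3 CPM, and the intravenous saline mice stood at 2.03 and 1.39 CPM. All 7 were above every other mouse, the next being APAP mouse 1, and the rise was 5.49 ± 0.55 (adjusted p = 9.38e-05).

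In the APAP mice Timp1 ranged from 9.06 to 39.6 CPM with a median of 12.5 CPM, all above every vehicle mouse. Mouse 1, the lowest in Acta2, was the highest in Timp1. The rise was 3.92 ± 0.66 (adjusted p = 0.000163), and 3.43 without mouse 1 (adjusted p = 0.000669). With CCl4 the mice ranged from 5.16 to 19.5 CPM against 0.330 and 1.12 CPM in saline, a rise of 4.09 ± 0.66 (adjusted p = 0.00129). With GAL the 4 mice stood at 7.94, 6.56, 5.81 and 3.69 CPM, also all above the saline mice, and the rise was 3.08 ± 0.60 (adjusted p = 0.0139); without saline mouse 7 it was 2.37 with an adjusted p of 0.0571. With TAA the mice stood at 2.64, 8.49, 7.45, 12.6 and 7.33 CPM, and mouse 1 fell within the vehicle range. The rise was 2.75 ± 0.69 (adjusted p = 0.00243).

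Timp1 did not pass the threshold with ANIT (0.57 ± 0.87, adjusted p = 0.674) or MDA (0.52 ± 0.66, adjusted p = 0.585). Against the 9 gavage vehicle mice numbered 1 to 12, a choice made after the data were seen, it was 1.99 higher with ANIT (adjusted p = 0.0441) and 1.92 higher with MDA (adjusted p = 0.0127). In these 9 mice Timp1 was at most 1.22 CPM. Neutrophil markers were followed as signs of inflammatory cells, since leukocytes too can express Timp1. Their summed level was 2.17 to 60.9 CPM in the gavage vehicle mice, with the highest values, 34.1 and 60.9 CPM, in mice 17 and 18. It was 126 to 286 CPM with ConA and 159 to 843 CPM with TAA, where 3 of 4 and 5 of 5 markers rose. Of these markers 3 of 4 also rose with APAP, 4 of 5 with GAL and 2 of 5 with CCl4. Where Timp1 did not pass, 2 of 4 rose with MDA (8.52 to 131 CPM in sum) and 1 of 4 with ANIT (15.2 to 47.2 CPM). Of the monocyte and macrophage markers, 5 of 6 rose with APAP and 4 of 6 each with TAA, CCl4 and GAL, and 1 of 5 rose with ConA. With MDA 1 of 6 rose, and with ANIT 0 of 5 rose and 2 fell. The part of these cells in the Timp1 values was not tested.

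**Figure D3:**
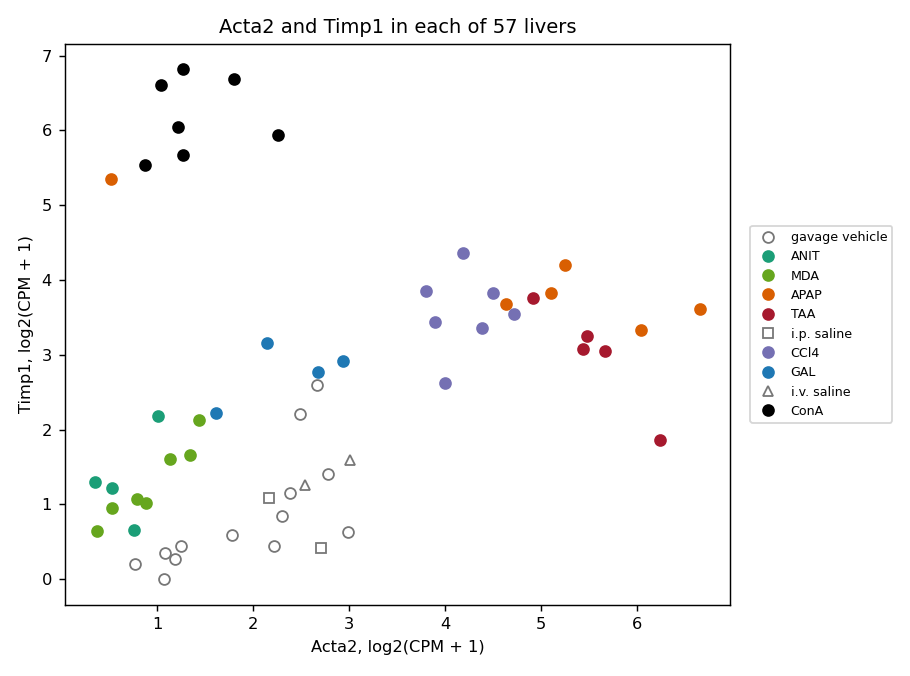
Acta2 (horizontal) and Timp1 (vertical), both as log2(CPM + 1), in each of 57 mice, with colour and shape for the group. The 7 ConA mice and APAP mouse 1 lie at high Timp1 and low Acta2, the other APAP mice and the TAA mice at high Acta2, and the CCl4 mice between them with both raised.

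Lox encodes lysyl oxidase, the secreted enzyme that starts the cross-linking of collagen and elastin. It was the lowest member in vehicle livers, at 1.20 to 3.44 estimated counts (0.0461 to 0.175 CPM) in the gavage vehicle mice, so its fold changes rest on very low values in the controls. The deposited values appear corrected for transcript length, so they are not numbers of reads. Against the route vehicles it passed the filter on low values with TAA, CCl4 and ConA only, and it is described mainly by its levels. The filter asks for a high enough estimated count in as many mice as the smaller group has, which is 2 beside either saline group and 6 with APAP, so the comparisons tested are not simply those with the highest levels. In the ConA mice it ranged from 1.67 to 4.86 CPM with a median of 2.70 CPM, and in the intravenous saline mice it stood at 0.0304 and 0.302 CPM. In the TAA mice it stood at 0.699, 0.721, 1.50, 3.23 and 1.31 CPM. Both groups lay wholly above their vehicle mice, with differences of 4.13 ± 0.78 with ConA (adjusted p = 0.00283) and 3.65 ± 0.34 with TAA (adjusted p = 4.14e-08). Since Lox passed the filter there through the treated mice, these p-values cannot be read without that choice. With no filter on low counts the adjusted p was 0.00552 with ConA and 1.66e-07 with TAA. The 6 APAP mice, at 0.178 to 1.42 CPM, also lay above every gavage vehicle mouse, but Lox was not tested there. The CCl4 mice lay at 0.267 to 0.608 CPM, above saline at 0.150 and 0.0692 CPM, with a difference of 1.63 ± 0.62 (adjusted p = 0.0709).

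Lrat fell with 5 of 7 compounds and rose with none. In the gavage vehicle mice it ranged from 1.19 to 4.58 CPM with a median of 2.49 CPM. The 5 TAA mice, at 0.559, 0.677, 0.835, 0.816 and 0.625 CPM, all lay below every gavage vehicle mouse, and the difference was -1.88 ± 0.26 (adjusted p = 7.33e-06). The 7 MDA mice ranged from 0.631 to 1.52 CPM with a median of 0.699 CPM, and only mouse 3 reached the vehicle range. The difference with MDA was -1.63 ± 0.25 (adjusted p = 3.64e-05). With ANIT Lrat was 1.24, 1.44, 1.06 and 2.25 CPM, in part within the vehicle range, with a difference of -0.84 ± 0.29 (adjusted p = 0.0394) that did not pass the threshold without ANIT mouse 1, 2 or 3, where adjusted p was at least 0.096.

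The lowest Lrat levels were those of the ConA mice, from 0.112 to 0.443 CPM with a median of 0.342 CPM, which are 2.13 to 5.04 estimated counts. The 2 intravenous saline mice were far apart, at 0.769 and 4.70 CPM, and both were above every ConA mouse. The difference was -3.14 ± 0.62 (adjusted p = 0.0035). Without saline mouse 8 it was -1.32 with an adjusted p of 0.29, while against all 17 vehicle mice it was -3.03 ± 0.34 (adjusted p = 2.28e-08). With CCl4 the mice ranged from 1.16 to 2.12 CPM, below saline at 2.92 and 2.15 CPM. That difference of -0.82 ± 0.27 (adjusted p = 0.0404) lost the threshold without either saline mouse and without any 1 of 5 CCl4 mice.

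With APAP Lrat ranged from 0.395 to 3.39 CPM with a median of 1.57 CPM, and mice 8 and 11, which had the highest Acta2 levels of the group, were the lowest in Lrat at 0.395 and 0.755 CPM. The difference was -0.63 ± 0.34 (adjusted p = 0.175), and -0.56 without mouse 1. Without mouse 2 it was -0.94 and passed (adjusted p = 0.0472). With GAL Lrat stood at 2.17, 3.91, 6.27 and 3.77 CPM, and 3 of the 4 were above both saline mice, with a difference of 0.59 ± 0.47 (adjusted p = 0.367).

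Reln fell with ANIT and MDA and passed no threshold elsewhere. With APAP its difference was -0.36 without mouse 1, the highest of that group at 23.6 CPM, and 0.00 with it. It ranged from 4.67 to 22.2 CPM with a median of 11.1 CPM in the gavage vehicle mice. The 7 MDA mice ranged from 1.70 to 7.98 CPM with a median of 3.94 CPM, and the 4 ANIT mice stood at 3.30, 9.76, 4.16 and 8.50 CPM. Both groups overlapped the vehicle mice, and the differences were -1.49 ± 0.27 with MDA (adjusted p = 0.000211) and -0.92 ± 0.32 with ANIT (adjusted p = 0.0375). The ANIT difference did not pass without ANIT mouse 1 or 3. Nor did it pass without a filter on low counts (adjusted p = 0.0609), with all mice in the fit (0.0777) or with the range of mouse numbers as a covariate (0.0595). With TAA, where Lrat lay wholly below the vehicle mice, Reln stood at 21.7, 12.4, 10.7, 14.8 and 12.0 CPM, within the vehicle range, with a difference of 0.29 ± 0.24 (adjusted p = 0.317). With ConA it ranged from 2.35 to 16.6 CPM against 7.70 and 18.4 CPM in saline (-0.62 ± 0.57, adjusted p = 0.427). The 2 quiescence genes thus passed the threshold together with ANIT and MDA, and Lrat passed without Reln with TAA, CCl4 and ConA; the difference between the 2 genes was not tested.

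**Figure D4:**
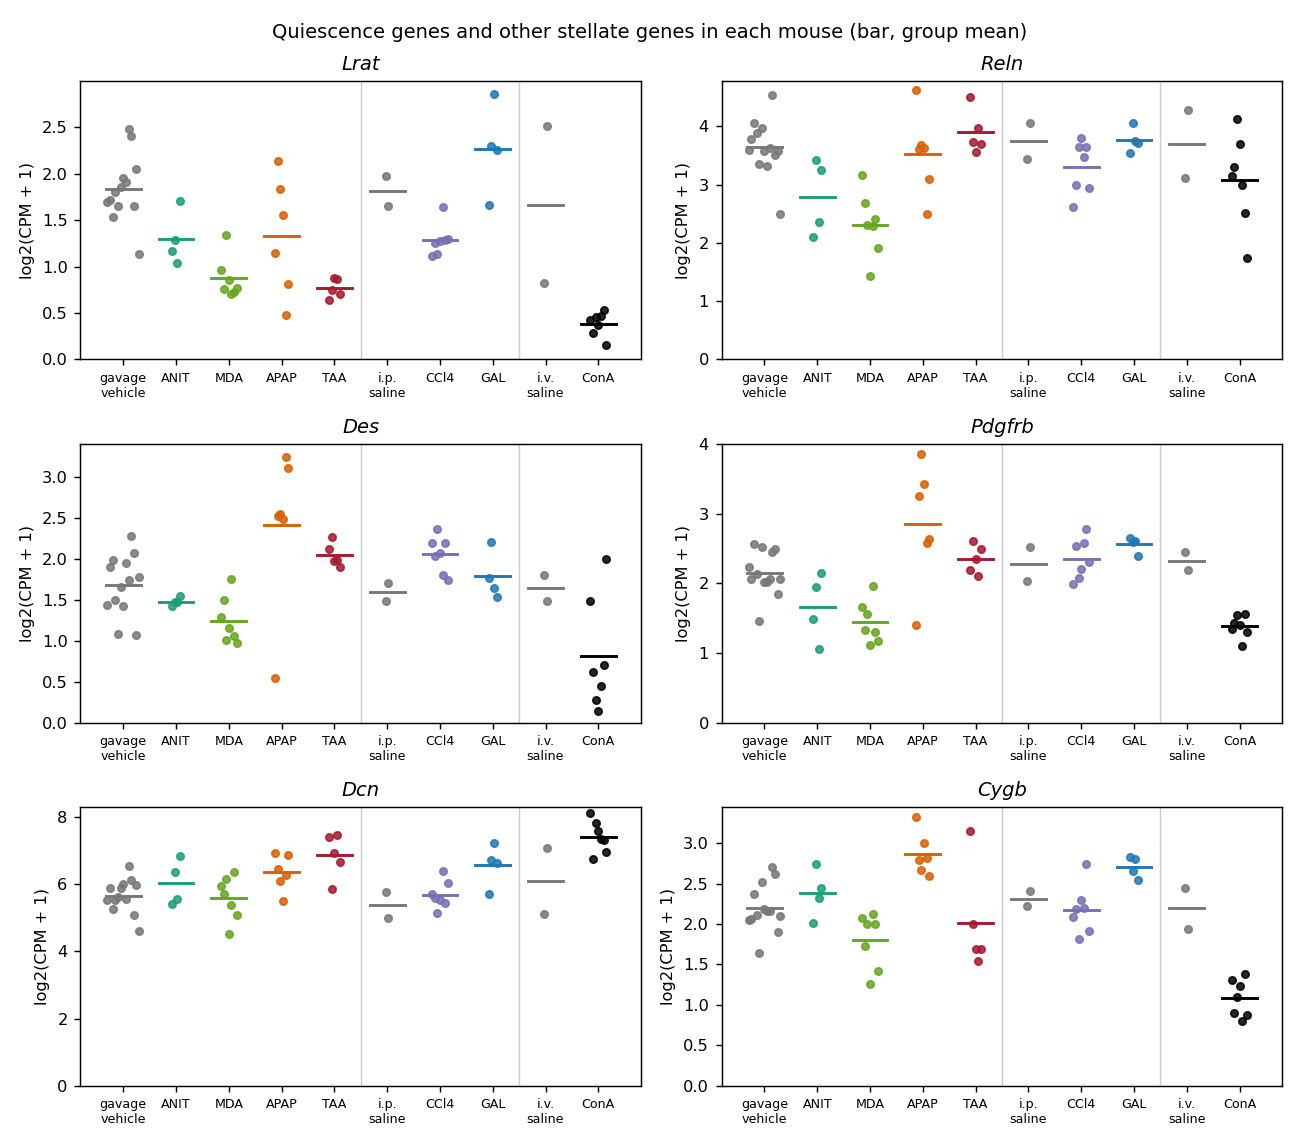
Levels of Lrat, Reln, Des, Pdgfrb, Dcn and Cygb on a log2(CPM + 1) scale in each of 57 mice (points), by group, with the group mean as a bar. Lrat is lowest in the ConA, TAA and MDA mice, Reln is lowest in the MDA and ANIT mice, and Dcn is highest in the ConA mice, where Pdgfrb and Cygb are low.

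Des encodes desmin, a muscle intermediate filament protein, and Pdgfrb the receptor through which platelet-derived growth factor drives stellate cell division. Both rose with APAP. Des was 0.463 CPM in APAP mouse 1, the lowest of its group, and 4.60 to 8.51 CPM in the other 5, against 1.09 to 3.87 CPM in the gavage vehicle mice. It rose by 1.18 ± 0.34 (adjusted p = 0.0114), and by 1.41 without mouse 1. Pdgfrb was 1.64 CPM in mouse 1 and 5.00 to 13.5 CPM in the other 5, against 1.76 to 4.95 CPM in the vehicle mice, and rose by 1.06 ± 0.27 (adjusted p = 0.00603), and by 1.25 without mouse 1. With mouse 1 left out, the remaining APAP mice thus lay wholly above the vehicle mice in both genes.

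Both genes fell with MDA, Des by 0.70 ± 0.25 (adjusted p = 0.0342) and Pdgfrb by 0.99 ± 0.21 (adjusted p = 0.00115). The fall of Des did not pass the threshold without any 1 of 4 MDA mice or with vehicle mice numbered 1 to 12 (-0.62, adjusted p = 0.0621). Pdgfrb also fell with ConA, from 4.46 and 3.55 CPM in saline to between 1.15 and 1.96 CPM, without overlap (-1.29 ± 0.30, adjusted p = 0.0078), and the call was lost without saline mouse 7 (adjusted p = 0.0639). Des varied widely among the ConA mice, from 0.107 to 3.02 CPM (-1.16 ± 0.93, adjusted p = 0.363). Neither gene passed with ANIT, TAA, CCl4 or GAL, where Pdgfrb differed by -0.64, 0.27, 0.09 and 0.27.

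Dcn encodes decorin, a small leucine-rich proteoglycan that coats collagen fibrils, and was the most abundant member. It rose with TAA, at 167, 56.6, 119, 176 and 99.7 CPM against 23.3 to 91.5 CPM in the vehicle mice (1.29 ± 0.25, adjusted p = 0.000217). With APAP it ranged from 44.3 to 119 CPM, overlapping the vehicle mice, and rose by 0.74 ± 0.23 (adjusted p = 0.0189). That call was lost without mouse 1 (0.59, adjusted p = 0.0707) and also without mouse 11 (0.64, adjusted p = 0.0595). In the ConA mice it ranged from 106 to 275 CPM with a median of 161 CPM, the highest median of any group. The intravenous saline mice were far apart at 33.8 and 135 CPM, and the difference was 1.08 ± 0.51 (adjusted p = 0.13). It was 0.41 without saline mouse 7 (adjusted p = 0.557) and 2.41 without saline mouse 8 (adjusted p = 0.016). Against all 17 vehicle mice Dcn rose by 1.77 ± 0.24 with ConA (adjusted p = 4.36e-07).

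Cygb encodes cytoglobin, a haem protein that in liver is made mainly by stellate cells. In the ConA mice it ranged from 0.749 to 1.61 CPM with a median of 1.14 CPM, below saline at 4.44 and 2.85 CPM. It fell by 1.67 ± 0.37 (adjusted p = 0.00687), and without saline mouse 7 the difference was -1.31 with an adjusted p of 0.0822. All 7 ConA mice were also below every one of the 17 vehicle mice. With APAP Cygb ranged from 5.04 to 8.98 CPM against 2.11 to 5.52 CPM in the vehicle mice and rose by 0.83 ± 0.18 (adjusted p = 0.00148), and by 0.68 without mouse 1. TAA mouse 1 was high at 7.91 CPM and the other 4 TAA mice lay between 1.91 and 2.99 CPM. The TAA difference was -0.05 ± 0.29 (adjusted p = 0.895) with mouse 1 and -0.63 without it (adjusted p = 0.0199).

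Levels were compared between the activation and the quiescence genes within each mouse, as the mean log2(CPM + 1) of Acta2, Tagln, Timp1 and Lox minus that of Lrat and Reln. The 13 gavage vehicle mice had a mean of -1.26 ± 0.62 (SD), with a range of -1.89 to 0.40. The TAA mice stood at 1.70 ± 0.22 (SD, n = 5), the ConA mice at 1.32 ± 0.58 (SD, n = 7) and the CCl4 mice at 0.93 ± 0.35 (SD, n = 7), and every mouse of these 3 groups was above each control mouse of its own route. The intraperitoneal saline mice averaged -1.01, and the intravenous saline mice stood at 0.15 and -1.40. The zero of this difference is set by the genes and the pseudocount and is no threshold. The APAP mice averaged 1.25 ± 1.29 (SD, n = 6), with mouse 1 at -0.76 and mice 8 and 11 at 2.67 and 2.64. The difference from the gavage vehicle mean was 2.51 with mouse 1 and 2.91 without it.

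The means of the remaining groups lay nearer to those of their vehicle mice. GAL stood at -0.80 ± 0.33 (SD, n = 4), ANIT at -1.12 ± 0.26 (SD, n = 4) and MDA at -0.49 ± 0.46 (SD, n = 7). The MDA mean was 0.77 above that of the vehicle mice although its activation mean, 1.11, was below the vehicle mean of 1.48, since its quiescence mean was 1.59 against 2.74. With a pseudocount of 0.1 the MDA difference was 1.20. With ConA the activation mean without Timp1 gave a difference from saline of 0.68 in place of 1.94, and with CCl4 1.48 in place of 1.94. These differences are given without a test, because the genes were chosen with results of these data known.

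**Figure D5:**
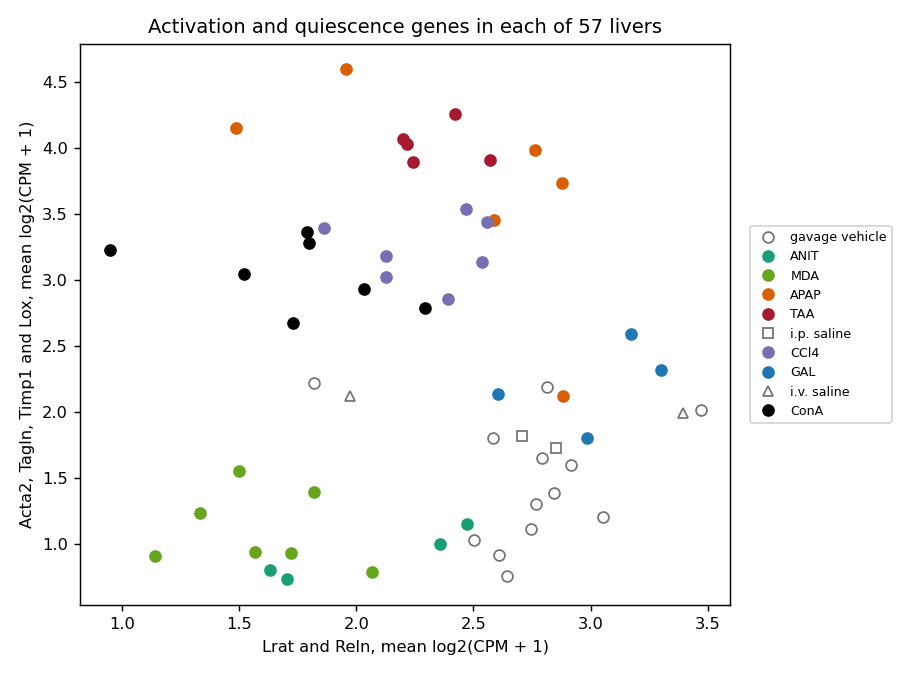
Mean log2(CPM + 1) of Lrat and Reln (horizontal) against that of Acta2, Tagln, Timp1 and Lox (vertical) in each of 57 mice, with colour and shape for the group. TAA mice (3.90 to 4.26) and APAP mice 4, 8 and 11 (3.99, 4.15 and 4.60) sit highest on the vertical axis, APAP mice 2 and 6 a little lower (3.74 and 3.46), ConA mice to the upper left, MDA mice to the lower left, and vehicle mice to the lower right together with APAP mouse 1.

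Set against all 17 vehicle mice as 1 group, which hold the route controls used above, most calls stood. The share of all genes called in either direction is given in brackets. Of 9 tested members, 3 were called with ANIT (28%), 6 with APAP (33.4%), 7 with MDA (34.2%), 5 with CCl4 (53.4%) and 3 with GAL (52.5%). Of 10 tested, 7 were called with TAA (49.7%) and 8 with ConA (68%). The members' share was near the background with ANIT and CCl4 and below it with GAL. Scaled to library totals, 8 members were called with GAL and 5 with ANIT, so the reading of these shares depends on the scaling. Some calls changed. Lrat with ANIT (-0.84, adjusted p = 0.0726), Dcn with APAP (0.66, adjusted p = 0.0596) and Tagln with ConA (-0.58, adjusted p = 0.0911) were lost. Cygb with MDA (-0.52, adjusted p = 0.0294), Des with TAA (0.52, adjusted p = 0.0482) and with CCl4 (0.47, adjusted p = 0.0377), Dcn (0.82, adjusted p = 0.0328) and Cygb (0.53, adjusted p = 0.0171) with GAL, and Des (-1.17, adjusted p = 0.0126) and Dcn with ConA were added. Several added calls rested on single mice. That of Des with TAA was lost without any 1 of the 5 TAA mice (adjusted p from 0.0546 to 0.133) with DESeq2 (0.0528) and with library totals (0.102), and that of Des with CCl4 without mouse 1, 6 or 11. That of Cygb with MDA was lost without mouse 4 or 12, and that of Dcn with GAL without mouse 4 or 7.

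Compounds given by the same route were compared directly, in 1 edgeR fit of all 57 mice. Shares in brackets here are of all genes called in either direction. Lox was tested in this fit because the filter on low values ran over all 57 mice. With only the 2 compounds in the fit it was tested only in the comparisons with TAA. Its p-values below cannot be read without that choice. Between ANIT and MDA 0 of 10 members were called (0.24% of all genes), and 2, Lrat and Cygb, had an unadjusted p under 0.05. The difference was -0.67 ± 0.67 for Acta2, 0.79 ± 0.39 for Lrat and 0.72 ± 0.28 for Cygb. Between APAP and TAA 3 members were called (9.65%). Lox was lower with APAP (-1.35 ± 0.41, adjusted p = 0.0252), Lrat was higher (1.29 ± 0.39, adjusted p = 0.0248) and Cygb was higher (0.91 ± 0.28, adjusted p = 0.0263). Acta2 (-0.16 ± 0.53) and Timp1 (1.17 ± 0.62) did not pass. Without APAP mouse 1 the Cygb call was lost (0.77, adjusted p = 0.0518) and Pdgfrb was called higher with APAP (1.02, adjusted p = 0.00555). With only these 2 groups in the fit, 0 members were called, and the adjusted p was 0.199 for Lox, 0.184 for Lrat and 0.208 for Cygb.

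In the next counts the share of all genes called in the same direction stands in brackets. APAP differed from MDA in 9 members, all higher with APAP (9.8%), and from ANIT in 6, again all higher with APAP (9.79%). Both counts were the same without APAP mouse 1, and with only the 2 groups in the fit the second was 3. TAA differed from MDA in 8 members (26.2%) and from ANIT in 5 (23.8%), all higher with TAA. Acta2 was 5.41 ± 0.59 higher with APAP than with MDA and the difference of ANIT from TAA was -6.24 ± 0.80. CCl4 and GAL differed in 5 members (28.6% of all genes, in either direction). Acta2 (2.06 ± 0.61, adjusted p = 0.00828), Tagln (1.15 ± 0.44, adjusted p = 0.0418) and Lox (1.30 ± 0.46, adjusted p = 0.028) were higher with CCl4. The Lox values there are low, with means of 0.366 CPM with CCl4 and 0.147 CPM with GAL, and the call was lost with library totals (adjusted p = 0.103). With only these 2 groups in the fit Lox did not pass the filter on low values and was not tested. Lrat (-1.45 ± 0.37, adjusted p = 0.00224) and Dcn (-0.93 ± 0.35, adjusted p = 0.0385) were lower with CCl4, and Timp1 did not pass (0.97 ± 0.65, adjusted p = 0.271).

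When libraries were scaled by their totals alone, without TMM, the median of all genes' log2 fold changes moved to 0.84 with GAL, 0.53 with CCl4, -0.56 with ConA, 0.22 with APAP and -0.23 with ANIT, and the members moved with it. With GAL 4 members were then called in place of 1, Pdgfrb, Dcn and Cygb joining Timp1, and Acta2, Tagln and Reln stood above saline (0.61, 0.51 and 0.71). With CCl4 the split went from 3 higher and 1 lower to 5 higher and 0 lower, since Lox and Des were added and Lrat (-0.39, adjusted p = 0.381) was lost. Against all vehicle mice it went from 4 and 1 to 6 and 0. Between CCl4 and GAL it went from 3 higher and 2 lower to 1 and 3, and between APAP and TAA from 2 and 1 to 2 and 0. All 7 members called with ConA and all 6 called with TAA against their route vehicles kept their call and direction under this scaling.

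Lists of related genes are set against the shares of all genes called with each compound, which stand with the member counts above and ran from 12.8% to 26.4% for higher and from 14.2% to 24% for lower calls. Of 16 other genes of the contractile programme, 11 of 12 tested rose with APAP, 11 of 13 with TAA and 6 of 13 with CCl4, and none fell. With ANIT 1 of 11 rose and 5 fell, with MDA 4 rose and 4 fell, with GAL 4 rose and 1 fell, and with ConA 4 rose and 0 fell. Without APAP mouse 1, Myh11 also entered the test and 12 of 13 rose. The list's median log2 fold change was 1.18 with APAP and 1.20 with TAA. Srf, serum response factor, rose with all 7 compounds, from 0.61 ± 0.13 with MDA to 1.96 ± 0.14 with TAA, also where Acta2 fell. Vcl, vinculin, rose with 6 compounds. Csrp1, a partner of serum response factor, rose with APAP (1.29 ± 0.15), TAA, CCl4 and ConA (1.30 ± 0.26) and fell with ANIT (-0.83 ± 0.16) and MDA (-0.80 ± 0.13).

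Of 16 genes of TGF-beta signalling, the pathway best known for driving stellate cells to make matrix, 9 of 15 rose with APAP, 11 of 16 with TAA, 9 of 16 with GAL, 6 of 16 with ConA, 5 of 16 with CCl4, 5 of 15 with MDA and 3 of 15 with ANIT. At most 1 fell with any compound. With ANIT the share that rose was close to the 14% of all genes. Ccn2, connective tissue growth factor, rose with all 7, from 1.24 ± 0.27 with MDA to 5.30 ± 0.32 with TAA. Tgfbr2, a receptor of the pathway, rose with all 7, from 0.45 ± 0.12 with ANIT to 1.95 ± 0.24 with ConA. Without APAP mouse 1, Tgfbr2 (0.45, adjusted p = 0.0591) and Tgfbr3 (0.33, adjusted p = 0.141) lost their APAP calls, which left 7 of 15. These genes are also made by other liver cells, so their changes cannot be assigned to stellate cells.

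The platelet-derived growth factor list holds 5 genes. The ligand gene Pdgfa rose with 6 compounds, most with TAA (1.74 ± 0.22) and GAL (1.66 ± 0.23). The ligand gene Pdgfc fell with APAP (-0.80 ± 0.23), MDA (-1.02 ± 0.19) and TAA (-1.45 ± 0.22), and the receptor gene Pdgfra rose with ANIT (1.02 ± 0.35) and TAA (1.32 ± 0.33). Of 10 other TIMP and metalloproteinase genes, 5 of 7 tested rose with APAP, 6 of 8 with TAA, 4 of 8 with ConA, 3 of 8 with CCl4, 3 of 7 with GAL and 2 of 6 each with ANIT and MDA. With MDA 2 also fell and with ANIT 1. Mmp14, a membrane-bound metalloproteinase, rose with 5 compounds. Timp3 rose with 5, most with ConA (3.17 ± 0.36), and Mmp12, macrophage elastase, rose by 6.56 ± 0.85 with GAL and 5.17 ± 0.91 with CCl4.

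Of 10 relatives of lysyl oxidase and collagen-modifying enzymes, 3 of 8 tested rose with each of APAP and TAA, 3 of 9 with CCl4, 2 of 9 with each of GAL and ConA and 0 of 8 with ANIT and MDA. With ANIT 2 fell, and 1 fell with each of MDA, TAA and GAL. Loxl2, a relative of Lox, rose with APAP (1.62 ± 0.18) and TAA (2.01 ± 0.16) and fell with ANIT (-1.09 ± 0.21) and MDA (-1.10 ± 0.24). P4ha2, a collagen prolyl hydroxylase subunit, rose with CCl4 (3.10 ± 0.22), ConA (2.76 ± 0.47) and GAL (1.61 ± 0.27), and Plod3, a collagen lysyl hydroxylase, rose with 4 compounds, most with ConA (1.34 ± 0.33). Among the proteoglycans related to Dcn, Prelp fell with 6 of 7 compounds, most with ConA (-2.03 ± 0.41), and its APAP call was lost without mouse 1 (-0.58, adjusted p = 0.08). Bgn, biglycan, rose with APAP (0.44 ± 0.13) and fell with ANIT (-0.53 ± 0.15) and MDA (-0.68 ± 0.16). Fmod, fibromodulin, passed with none. Without APAP mouse 1 the collagen prolyl hydroxylase gene P4ha1 was added (0.52, adjusted p = 0.00824), Pdgfb rose (0.96, adjusted p = 0.0364) and the identity gene Colec11 fell (-0.60, adjusted p = 0.0256). Genes named only for such a change of call were chosen after their values were seen.

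Other genes of stellate identity and of vitamin A handling did not move as 1 block. Of 15 tested identity genes, 8 fell with MDA, 6 with CCl4, 5 each with TAA and ConA, 3 each with ANIT and GAL and 1 with APAP, while 5 rose with TAA, 4 with APAP, 2 each with ANIT and CCl4, 1 each with MDA and GAL and 0 with ConA. With TAA both shares were not far from those of all genes, 26.4% and 24%. Pth1r, a hormone receptor, fell with 5 compounds, most with ConA (-3.79 ± 0.60) and TAA (-2.97 ± 0.30), which are also the compounds with the largest falls of Lrat. Nes, the intermediate filament nestin, fell with ANIT (-1.63 ± 0.37) and MDA (-1.59 ± 0.29) and rose with APAP (2.03 ± 0.38), TAA (1.97 ± 0.24), CCl4 (1.39 ± 0.47) and GAL (1.76 ± 0.42). Angptl6 fell with 6 compounds. Of 10 tested retinoid genes, 6 fell with CCl4, 5 each with APAP and GAL, 3 each with TAA and ConA, 2 with ANIT and 1 with MDA, while 3 rose with MDA, 2 each with ANIT and ConA, 1 each with APAP and TAA and 0 with CCl4 and GAL. The most often called were Cyp26a1, a retinoic acid hydroxylase, Aldh1a1, a retinal dehydrogenase, and Rbp4, the retinol carrier. All 3 are genes that hepatocytes express. Of 6 hepatocyte markers 5 fell with each of CCl4 and GAL, 2 with each of ANIT, APAP, MDA and TAA and 1 with ConA, and 1 rose with each of APAP and TAA. Without APAP mouse 1 no hepatocyte marker rose with APAP, and 6 retinoid genes fell, Rxra being added (-0.42, adjusted p = 0.0194). The part of hepatocytes in the retinoid gene values was not tested. Cyp26a1 fell by 5.06 ± 1.03 with GAL and by 3.57 ± 0.43 with TAA and rose with MDA (1.34 ± 0.36).

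Markers of the other cells around the sinusoid were followed where members fell. With ConA all 5 Kupffer cell markers fell, and their summed level was 24.2 to 49.5 CPM against 267 and 276 CPM in saline. Of 6 sinusoidal endothelial markers, 4 fell and 1 rose with ConA, and the sum was 55.9 to 109 CPM against 137 and 138 CPM. Of the endothelial markers 5 fell and 1 rose with TAA, 3 fell with CCl4, 3 fell and 1 rose with MDA and 1 fell and 1 rose with ANIT. Portal fibroblast markers, another source of matrix genes, had 1 of 6 higher with ConA (36.5 to 51.8 CPM in sum against 23.5 and 33.3 CPM) and 3 of 6 higher with APAP. With ANIT 2 of these 6 fell and 1 rose, and with MDA 1 fell. Of the mesothelial markers, 0 of 5 tested were called with ConA and 0 of 3 with APAP, and 1 of 3 fell with each of ANIT and MDA. Of the Kupffer cell markers 2 of 5 fell and 1 rose with CCl4, and 1 fell and 1 rose with each of ANIT and MDA. Cholangiocyte markers rose in 2 of 4 with each of ConA and TAA. Their part in the changes of Lrat, Pdgfrb, Cygb and Dcn was not tested.

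Ordered by the median level over 57 mice, which pools groups that differ many-fold in some members, the members ran from Dcn at 63.2 CPM through Reln (10.6), Tagln (8.66), Acta2 (3.78), Timp1 (3.69), Cygb (3.34), Pdgfrb (3.30), Des (2.36) and Lrat (1.42) to Lox at 0.192 CPM. The values appear to be corrected for transcript length, which allows this order. The neighbours Acta2, Timp1, Cygb and Pdgfrb differed by far less than their ranges over mice. In the 13 gavage vehicle mice alone the median of Timp1 was 0.508 CPM, above Lox only, and those of Acta2, Cygb, Pdgfrb, Lrat and Des were 3.65, 3.46, 3.18, 2.49 and 2.36 CPM.

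Across mice, the members did not vary as 1 block. Pearson's r of log2(CPM + 1) over the 57 mice, which share groups and libraries and are described without a test, was 0.97 between Acta2 and Tagln and 0.79 between Timp1 and Lox. It was only 0.23 between Acta2 and Timp1. Within the 13 gavage vehicle mice r was 0.77 for Acta2 and Tagln, 0.69 for Acta2 and Timp1, 0.18 for Timp1 and Lox, 0.90 for Lrat and Dcn and 0.90 for Pdgfrb and Cygb. Over all 57 mice the last 2 were -0.18 and 0.64.

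Among 11855 genes, the 2 most like each member in Pearson's r over the 57 mice were as follows. Acta2 was nearest to Tagln and then Col5a2 (0.85), and Tagln to Acta2 and Col5a2 (0.87), which encodes a chain of type V collagen. Timp1 was nearest to Tnfrsf23 (0.91) and Creb3l1 (0.91), Lox to Gm49759 (0.93) and Spry2 (0.93), Des to Cnn2 (0.81) and Adgra2 (0.80), and Pdgfrb to Col5a1 (0.85) and Akr1b3 (0.83). Lrat was nearest to Gatm (0.83) and Abcg3 (0.82), Reln to the collagens Col14a1 (0.86) and Col6a1 (0.73), Dcn to Ednrb (0.88) and Ms4a4d (0.87), and Cygb to Tgfbi (0.86) and Mustn1 (0.81). By Spearman's rho, 9 of these 20 nearest genes were again among the first 2.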

How the data were processed

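The authors deposited estimated counts for each gene in each liver; the submitters' processing notes name Salmon 1.6.0, R 4.1.3 and GRCm39, and how transcripts were summed to genes is not given in the sources used here. Gene symbols were matched by Ensembl identifier for 51482 of 54307 genes. Across 12606 genes, which are not independent replicates, longer transcripts had a lower smallest value above 0 (Spearman's rho -0.74), so values appear length-corrected.

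Estimated counts were rounded, filtered with filterByExpr, TMM-scaled and tested with edgeR 4.0.16 (R 4.3.3) quasi-likelihood F-tests, with Benjamini-Hochberg adjustment over all genes tested. Each comparison with a vehicle was fitted on its 2 groups, and compounds of 1 route were compared in a fit of all 57 mice. SE is the absolute log2 fold change divided by the square root of F. On simulated data the test recovered a smaller share of known changes with CCl4, GAL and ConA, which have 2 controls, than with the gavage compounds. Alternatives used DESeq2 1.42.0 and limma 3.58.1, other filters and scaling, other control mice and left-out mice.

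The text names all 10 members, the 3 genes of each list called in most comparisons, and the 2 genes most like each member among genes tested in all 7 comparisons with a mean of at least 1 CPM. A list gene that this rule names is not reported here. Marker genes named beside a result were chosen after their values were seen. Members and lists were chosen with earlier results of these data known. No label says that mouse numbers shared between groups pair the mice. Between mice of the same number the mean correlation of deviations was 0.04 for ANIT, 0.08 for APAP, -0.02 for MDA, 0.17 for TAA and 0.03 for GAL. Mice of unlike numbers were not compared in this way, so these values cannot decide whether the numbers pair the mice.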

Additional observations from a re-analysis of the deposited data

Results flagged for a closer look

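In 7 of 77 groups of 4 to 10 mice tested, 1 mouse lay far from the others by Dixon's ratio of its gap to the group's range, which passed the ratio's 95% critical value for that group size; chance flags about 1 in 20 such groups. APAP mouse 1 was low in Acta2 (ratio 0.67), Tagln (0.67) and Des (0.72). Its library also had the highest summed level of cholangiocyte markers in its group, 41.7 CPM against 6.19 to 10.2 CPM, and of hepatocyte markers, and the part of these in the Acta2, Tagln and Des values was not tested. TAA mouse 1 was high in Cygb (0.72). MDA mouse 3 was high in Lox (0.60) and Lrat (0.58), and CCl4 mouse 10 was high in Lrat (0.64).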

How the results depend on the processing

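Of 850 single-gene values under other settings, 746 kept their direction and side of the threshold, 50 lost the call, 31 gained one and 23 changed sign; with 1 mouse left out these were 619, 55, 8 and 18 of 700. Among members called against a route vehicle no sign changed under any setting run, and where a call was lost or gained the cause was not tested unless a setting's construction shows it. With a mean of at least 5 CPM required, fewer members were tested, and called members numbered 2 with ANIT, 4 with APAP, 2 with MDA, 3 with TAA and 2 with ConA. Without a filter they numbered 2 with ANIT. With all mice in the fit they numbered 2 with ANIT and 1 with CCl4, and with the range of mouse numbers as covariate 1 with ANIT. Scaled to the library total they numbered 4 with GAL, 8 with GAL and 5 with ANIT against all vehicle mice. With GAL they numbered 2 with DESeq2 and 3 against all vehicle mice. With only their 2 groups in the fit, they numbered 3 between ANIT and APAP and 0 between APAP and TAA. With 1 mouse left out they ranged from 2 to 5 with ANIT (also against all vehicle mice), from 2 to 4 with CCl4, from 0 to 2 with GAL and from 3 to 7 with ConA.

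With the mouse number as a replicate block, a pairing that no label states, called members numbered 0 with ANIT, 0 with APAP and 2 with GAL. Reln with APAP (-0.20) and Des with GAL (-0.038) changed sign there. No paired analysis was possible for CCl4 and ConA because they share only 1 number with their controls.

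The activation minus quiescence difference without Timp1 was -0.21 with ANIT, 1.48 with CCl4, -0.32 with GAL and 0.68 with ConA. With a pseudocount of 0.1 it was 4.13 with TAA, 2.62 with CCl4 and 3.01 with ConA, and against control mice numbered 1 to 12, chosen after seeing the data, 0.42 with ANIT and 3.25 with TAA.

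The sign changes were in members without a call. Scaled to the library total they were Cygb with ANIT (-0.015), Reln (0.0017) and Cygb (0.29) with CCl4, Acta2 (0.61), Tagln (0.51) and Reln (0.71) with GAL, Timp1 between ANIT and MDA (-0.20) and Acta2 between APAP and TAA (0.12, and 0.10 without APAP mouse 1). Reln with APAP was -0.090 with limma, -0.029 without a filter, -0.033 against all vehicle mice, -0.034 with all mice in the fit and -0.16 with the range covariate, where Dcn with MDA was 0.033. Cygb with TAA was 0.040 against control mice 1 to 12, and Cygb between intravenous saline and gavage vehicle was -0.020 with DESeq2. Above 5 CPM Pdgfrb with CCl4 was -0.0064 and Reln with GAL 0.017. Against all vehicle mice Dcn with CCl4 was -0.10, and Acta2 and Tagln with GAL were 0.16 and 0.32. With 1 mouse left out, the ranges were -0.049 to 0.85 for Timp1 with ANIT, -0.36 to 0.17 for Reln with APAP, -0.17 to 0.12 for Dcn with MDA, -0.63 to 0.092 for Cygb with TAA, -0.20 to 0.44 for Pdgfrb and -0.0099 to 0.74 for Dcn with CCl4, -0.44 to 0.30 for Acta2, -0.57 to 0.035 for Tagln and -0.33 to 0.26 for Reln with GAL, and -1.11 to 0.15 for Reln with ConA. Lox rests on very low values in the controls, and groups of 2 saline mice limit what can be called with CCl4, GAL and ConA.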
